A study of Mus musculus with 6 samples.

Results

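The nuclear genes of oxidative phosphorylation were described in RNA sequencing of mouse corneal epithelial sheets, the layered cell sheet on the front of the eye. They are 38 genes chosen by symbol, of 25006 genes in the table of counts, and they encode 16 subunits of complex I (with Ndufa4), 3 of complex II, 6 of complex III, cytochrome c, 7 of complex IV and 5 of the ATP synthase. The rule that picks them uses symbols and no measured value, but the members were chosen with earlier results of these data known. All 38 were found in the table, and all 38 passed the filter on low counts.

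Total RNA came from 3 epithelial sheets labelled EphA2 null (EphA2-/- in the design text) and 3 labelled wild type. EphA2 is a receptor tyrosine kinase for ephrin-A ligands, and the series concerns its part in cilia and autophagy of the cornea. The labels give genotype alone: strain, age, the kind of null allele and any pooling of animals are not stated, and nothing says that the sheets came from separate animals, so p-values reflect only how far these libraries spread, and that spread may be technical. Each title also carries a number. It lies in a higher range for EphA2 null 2 and 3, which share 1 number, and wild type 3, and in a lower range for EphA2 null 1 and for wild type 1 and 2, which share another. What the number stands for is not stated. Library names such as EphA2 null 1 repeat the labels.

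Oxidative phosphorylation takes place in the inner mitochondrial membrane. Complex I and complex II pass electrons from NADH and succinate to coenzyme Q, complex III passes them on to cytochrome c, and complex IV hands them to oxygen, while the proton gradient built on the way drives the ATP synthase. Most subunits are encoded in the nucleus and imported, and a small core is encoded by mitochondrial DNA. The corneal epithelium takes its oxygen largely from the tear film and is known for a strong reliance on glycolysis beside respiration.

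The label was checked first. Epha2 itself (chromosome 4, 141301240 to 141329384 in GRCm38) had 285, 653 and 578 CPM in libraries labelled EphA2 null, against 298, 253 and 563 CPM in wild type, in the order 1, 2 and 3 that is kept for all values below. CPM are counts per 1000000 counts of the library, after scaling with TMM factors. Epha2 was thus no lower under the null label: the log2 fold change, null over wild type, was 0.44 ± 0.39 (SE, 3 libraries each; adjusted p = 0.9996, edgeR). Every genotype direction below is a direction between labels. Total counts ran from 20897761 to 27586942 for EphA2 null and from 15308013 to 20138496 for wild type. All 8 markers of corneal epithelium were detected, at a summed level of 58209.9 to 84076 CPM under the EphA2 null label and 60482 to 76356 CPM in wild type. The first principal component of all tested genes held 67.7% of the variance and separated the libraries by title number range. The 13 subunit genes of mitochondrial DNA were listed at 0 in every library, so the nuclear genes are the measured side of the pathway.

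Promoter windows were searched for the binding motifs of NRF1, YY1 and the ETS factor GABP, which are known regulators of nuclear respiratory genes. RefSeq windows on GRCm38.p6, from 250 bases before to 50 bases after a start, were found for 28 of the 38 genes, 29 windows in all. The NRF1 motif (GCGCA, any 1 base, then GCGC), read on both strands, stood in windows of 7 of the 28 genes (25.0%), against 5.19% of the 27025 genes with a window. The YY1 motif AAGATGGCG stood in 2 of the 28 (7.14%, against 1.64% of all genes), and the ETS motif CCGGAAG in 3 of the 28 (10.7%, against 9.93%). In all, 10 of the 28 genes (35.7%) held at least 1 of the motifs, against 15.1% of all genes. The other genes held none, so no motif was common to the set, and none of their windows is printed here. The YY1 and ETS motifs can share the letters AAG, but no window of the 28 genes held both. Shown here are Uqcrc1, Sdha, Ndufa9 and Ndufs7. Uqcrc1 was the 1 member called higher in the comparison of title numbers below, and Sdha had the most NRF1 matches. Ndufa9 and Ndufs7 were the 2 members with a YY1 match. The windows are chr9:108936398-108936697 on the plus strand, chr13:74350191-74350490 on the minus strand, chr6:126849095-126849394 on the minus strand and chr10:80249199-80249498 on the plus strand, each printed 5′ to 3′ on the strand of its gene, with the motif matches in capitals.
Uqcrc1: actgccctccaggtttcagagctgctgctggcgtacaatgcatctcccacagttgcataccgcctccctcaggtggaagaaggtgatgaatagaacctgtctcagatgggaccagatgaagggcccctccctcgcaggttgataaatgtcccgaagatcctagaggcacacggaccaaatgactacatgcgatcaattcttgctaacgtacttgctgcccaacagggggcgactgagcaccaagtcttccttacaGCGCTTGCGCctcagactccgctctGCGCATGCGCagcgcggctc
Sdha: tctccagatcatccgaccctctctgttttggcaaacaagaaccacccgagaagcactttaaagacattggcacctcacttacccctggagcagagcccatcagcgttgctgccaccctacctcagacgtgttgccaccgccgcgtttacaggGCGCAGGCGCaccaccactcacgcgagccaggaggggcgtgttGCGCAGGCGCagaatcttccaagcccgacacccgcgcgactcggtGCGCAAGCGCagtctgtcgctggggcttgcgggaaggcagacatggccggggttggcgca
Ndufa9: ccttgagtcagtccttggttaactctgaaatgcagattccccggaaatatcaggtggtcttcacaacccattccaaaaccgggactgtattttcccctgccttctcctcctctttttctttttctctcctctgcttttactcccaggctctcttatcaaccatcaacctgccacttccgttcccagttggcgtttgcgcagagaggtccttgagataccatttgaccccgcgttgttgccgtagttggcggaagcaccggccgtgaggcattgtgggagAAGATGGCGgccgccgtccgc
Ndufs7: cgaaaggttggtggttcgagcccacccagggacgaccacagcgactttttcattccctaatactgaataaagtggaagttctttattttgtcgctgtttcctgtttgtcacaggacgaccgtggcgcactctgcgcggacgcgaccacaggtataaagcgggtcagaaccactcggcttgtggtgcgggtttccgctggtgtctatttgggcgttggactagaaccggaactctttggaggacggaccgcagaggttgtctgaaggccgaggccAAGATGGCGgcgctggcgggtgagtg
Counted from the RefSeq start, the matches began 6 and 31 bases into the transcript of Uqcrc1, at 98, 55 and 10 bases before the start of Sdha, and 30 and 25 bases into the transcripts of Ndufa9 and Ndufs7. A match describes letters and is not a shown binding site.

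Levels are comparable between genes only per length, and were therefore divided by the length of 1 representative transcript per gene. On this scale the 38 genes spanned from 0.734 to 447 CPM per kb, as means over the 6 libraries. Ndufa4, first described as a complex I subunit and later found with complex IV, had the highest level, 447 ± 102 CPM per kb (SD, n = 6). Atp5b, the catalytic beta subunit of the ATP synthase, followed with 413 ± 22.6 CPM per kb, a difference smaller than the spread of Ndufa4. Next came Cox4i1, the widely expressed form of complex IV subunit 4, with 275 ± 25.2 CPM per kb, and Atp5a1, the alpha subunit beside the beta subunit in the catalytic head, with 199 ± 13.0. With the merged length of all annotated exons instead, the same 4 genes were highest at 197, 187, 136 and 157 CPM per kb, so the order of the last pair depends on the length used. Most complex I genes lay close together: 14 of the 16, without Ndufa4 and Ndufab1, ranged from 20.4 (Ndufs3) to 81.1 CPM per kb (Ndufv1).

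At the low end stood Cycs, which encodes the electron carrier cytochrome c, with 0.734 ± 0.0899 CPM per kb, and Atp5g1, 1 of the genes for the c-ring of the ATP synthase rotor, with 0.927 ± 0.168. Ndufab1, the mitochondrial acyl carrier protein that is also a complex I subunit, had 3.42 ± 0.523 and Cox7c, a small complex IV subunit, 8.17 ± 2.86 CPM per kb. These 4 were among the 8 genes whose transcript shared at least 100 bases, at 97% identity or more, with a transcript of another annotated gene. The other 30 genes had no such copy, and 1 of them, Sdhc, lay under 10 CPM per kb, at 8.79. The representative transcripts of Cycs, Atp5g1, Ndufab1 and Sdhc were also the 4 longest of the 38, at 3123, 4715, 3479 and 3171 bases. For Cox7c the pseudogene Gm10012 on chromosome 17 matched at 99.4% identity over 58.3% of the transcript, and for Cycs 14 genes matched, covering 33.7% of the transcript together. The remaining 4 with a copy, Atp5o, Uqcrb, Cox5b and Ndufs3, had 104, 56.0, 27.2 and 20.4 CPM per kb. Among 42 further subunits, 5 of 11 with a copy lay under 10 CPM per kb (Ndufb4, Ndufs5, Atp5g2, Atp5l and Atp5md), against 1 of 31 without one (Ndufb2). How reads with several matches were counted is not given in the sources used here, so the levels of genes with a copy are uncertain, and the part of copies and of transcript choice in the low levels was not tested.

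**Figure D1:**
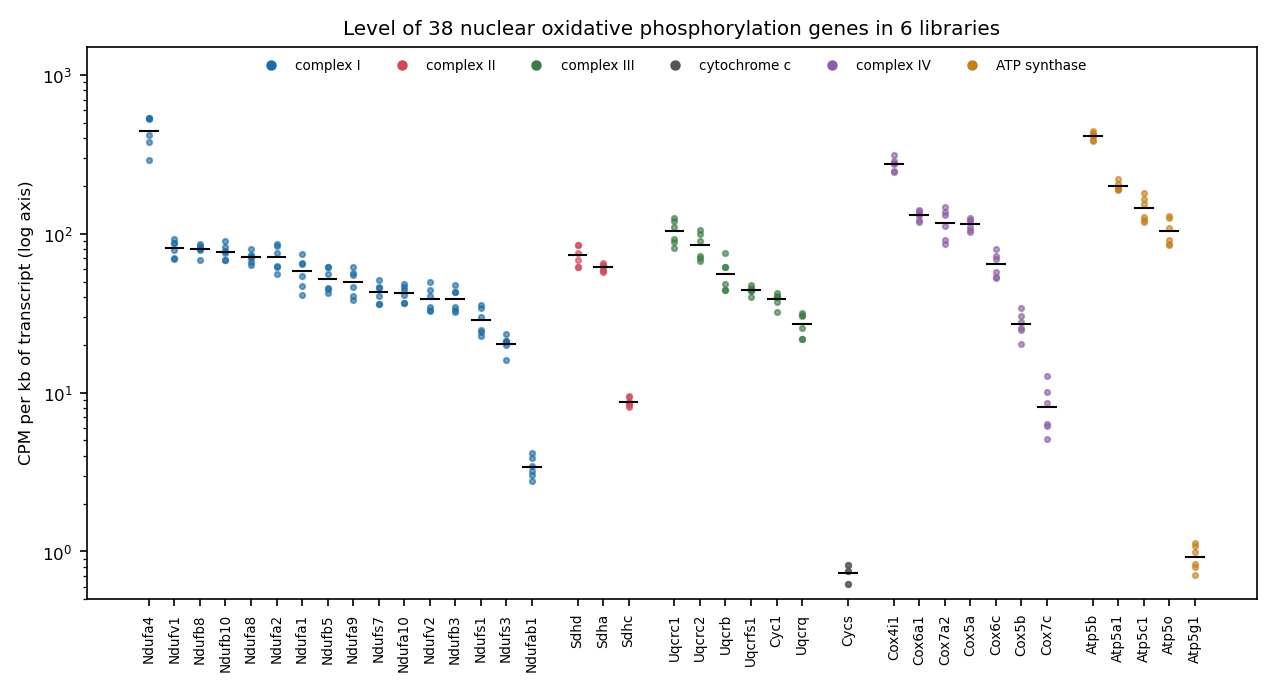
Level of each of the 38 genes in CPM per kb of representative transcript (log axis), 1 point per library and a black bar at the mean of the 6 libraries, grouped by complex. Cycs, Atp5g1, Ndufab1 and Cox7c stand lowest, at means of 0.734, 0.927, 3.42 and 8.17 CPM per kb, and Ndufa4 and Atp5b highest.

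The first comparison asked whether the respiratory genes differ between the libraries labelled EphA2 null and wild type. No member was called: edgeR's quasi-likelihood test with Benjamini-Hochberg adjustment over 12847 tested genes passed 0 of 38 at an adjusted p under 0.05, and 0 had an unadjusted p under 0.05. Over all tested genes 0.00778% were called, that is 1 gene, and 1.18% had an unadjusted p under 0.05. DESeq2 also called 0 of the 38 (background 0.0272%) and had 0 at an unadjusted p under 0.05 (background 0.892%), and limma voom likewise called 0 (background 0.00778%). The median log2 fold change of the 38 was -0.02, against 0.01 over all tested genes, and the largest distance of a member from 0 was 0.30. No member was separated between the genotypes, while 3.73% of all tested genes had groups that did not overlap. The 95% intervals of the fold changes, 1 per gene, reached from -1.09 to 0.63 on the log2 scale at their widest, and 37 of the 38 lay within 1 of 0 on that scale.

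The extremes of each complex had these values. In complex IV, Cox5b, a subunit that binds zinc, had 24.2, 21.6 and 17.5 CPM in libraries labelled EphA2 null, against 26.1, 29.5 and 22.0 CPM in wild type. The groups overlapped, and the log2 fold change of -0.30 ± 0.19 (SE, 3 libraries each; 95% interval -0.73 to 0.14) was the lowest of all 38. Uqcrc1, a core subunit of complex III, lay at the other end with 134, 208 and 199 CPM in libraries labelled EphA2 null, against 154, 147 and 184 CPM in wild type. Of the 6, EphA2 null 1 was lowest and EphA2 null 2 highest, at a log2 fold change of 0.16 ± 0.20 (95% interval -0.30 to 0.62). In the ATP synthase the fold changes ran from -0.28 ± 0.23 for Atp5g1 to 0.12 ± 0.12 for Atp5a1, and in complex I from -0.14 ± 0.17 for Ndufs3 to 0.09 ± 0.14 for Ndufa8. In complex III the lowest was -0.12 ± 0.20 for Uqcrq, a small subunit, and in complex IV the highest was 0.08 ± 0.14 for Cox4i1. In complex II they ran from -0.05 ± 0.18 for the membrane anchor gene Sdhd to 0.06 ± 0.12 for the flavoprotein gene Sdha.

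Genotype was also compared within each range of title numbers, since the ranges are not spread evenly over the genotypes. Within the higher numbers (EphA2 null 2 and 3 against wild type 3) and within the lower numbers (EphA2 null 1 against wild type 1 and 2), 24 of the 38 genes were above 0 in both and 3 below 0 in both. Each of these contrasts has a single library on 1 side, whose shift the members share. The same count over all tested genes was not made. Once the range entered the model beside genotype, the median of the 38 was 0.09, against -0.000694 over all tested genes, with 31 above 0 and 7 below. edgeR called 0 of the 38 in this model, 0 had an unadjusted p under 0.05, and the background was 0.00778% of genes called and 3.87% at an unadjusted p under 0.05. DESeq2 and limma voom called 0 of the 38 with the term as well, against 17 genes and 1 gene over all genes. Between the ranges, the genotype difference itself was tested as an interaction. edgeR called 0 of the 38 and 0% of all tested genes there. Cyc1, the gene of cytochrome c1, was the 1 member with an unadjusted p under 0.05 (adjusted p = 0.9991, edgeR), against 4.71% of all tested genes. DESeq2 and limma voom called 0 members in the interaction, against 3 and 0 genes over all genes.

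**Figure D2:**
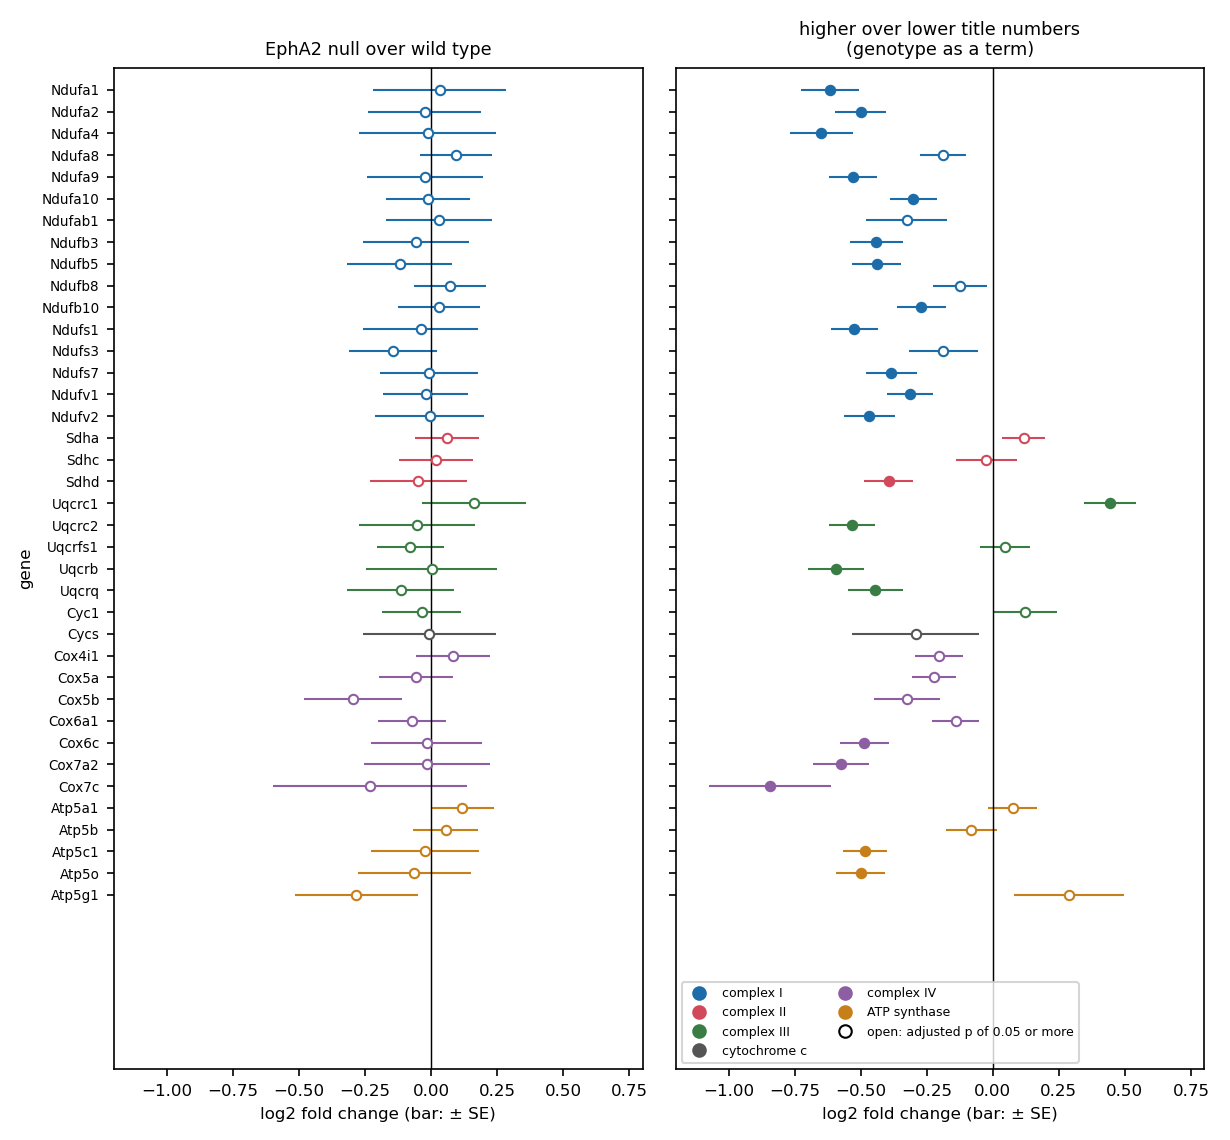
Log2 fold changes of the 38 genes with their SE (bars), EphA2 null over wild type on the left and higher over lower title numbers on the right, with filled points for an adjusted p under 0.05 in edgeR. All genotype points are open and lie within 0.30 of 0, while 21 points lie filled on the lower side and 1, Uqcrc1, on the higher side in the right panel.

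The second comparison set the libraries with higher title numbers against those with lower ones, with genotype as a term. It was chosen because earlier results of these data separated the libraries by this range. Its p-values are therefore not independent of the data and are given as a description only. The size of the split is given by the log2 differences. Most respiratory genes were lower in the higher title numbers. Of the 38, edgeR called 21 lower and 1 higher, and 16 did not pass. Each library counted separately in this fit, although EphA2 null 2 and 3 share a title number, as do wild type 1 and 2. Summing the libraries that share a number was done for genotype only. Over all tested genes 44.7% were called, 20.1% lower and 24.6% higher. The members' share of 55.3% called lower stands above the background in that direction. This was not tested as a set, and the members were chosen with earlier results of these data known. The median of the 38 was -0.33, against -0.01 over all tested genes, and 26 were separated from the other range on the lower side (28.8% of all tested genes) and 2 on the higher side (30.1%). Of all 38, called or not, 30 were below 0 within EphA2 null and within wild type alike, and 3 were above 0 in both. Here too a single library stands on 1 side of each contrast, and all tested genes were not counted this way. Without EphA2 null 1, the single library of its genotype in the lower range, 2 members (Ndufa4 and Cox7a2) were called lower and 0 higher, while the median was -0.34. Leaving out each other library in turn gave 15 to 22 called lower and 1 higher. With libraries scaled by total counts alone, 3667 genes were called lower and 2449 higher, against 2586 and 3154 with TMM, and 27 members were called lower. That scaling moved the median of all tested genes to -0.13 and that of the members to -0.44, a gap of -0.32 between members and all genes under both scalings.

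The library medians show the same split. Over the 38 genes the median of the log2 level relative to each gene's mean was 0.20, -0.06 and -0.21 in EphA2 null 1, 2 and 3, against 0.10, 0.16 and -0.21 in wild type 1, 2 and 3. The 3 libraries of higher title numbers were on the low side and the other 3 on the high side. By complex, complex I had 0.27, -0.06 and -0.21 in EphA2 null 1, 2 and 3, against 0.11, 0.18 and -0.22 in wild type 1, 2 and 3. In complex IV the medians were 0.19, -0.06 and -0.24 in EphA2 null 1, 2 and 3, against 0.13, 0.19 and -0.16 in wild type 1, 2 and 3, again with no overlap between the ranges. Complex II, with 3 genes, did not follow this split: its medians were -0.06, -0.03 and 0.09 in EphA2 null 1, 2 and 3, against 0.07, -0.01 and -0.12 in wild type 1, 2 and 3.

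**Figure D3:**
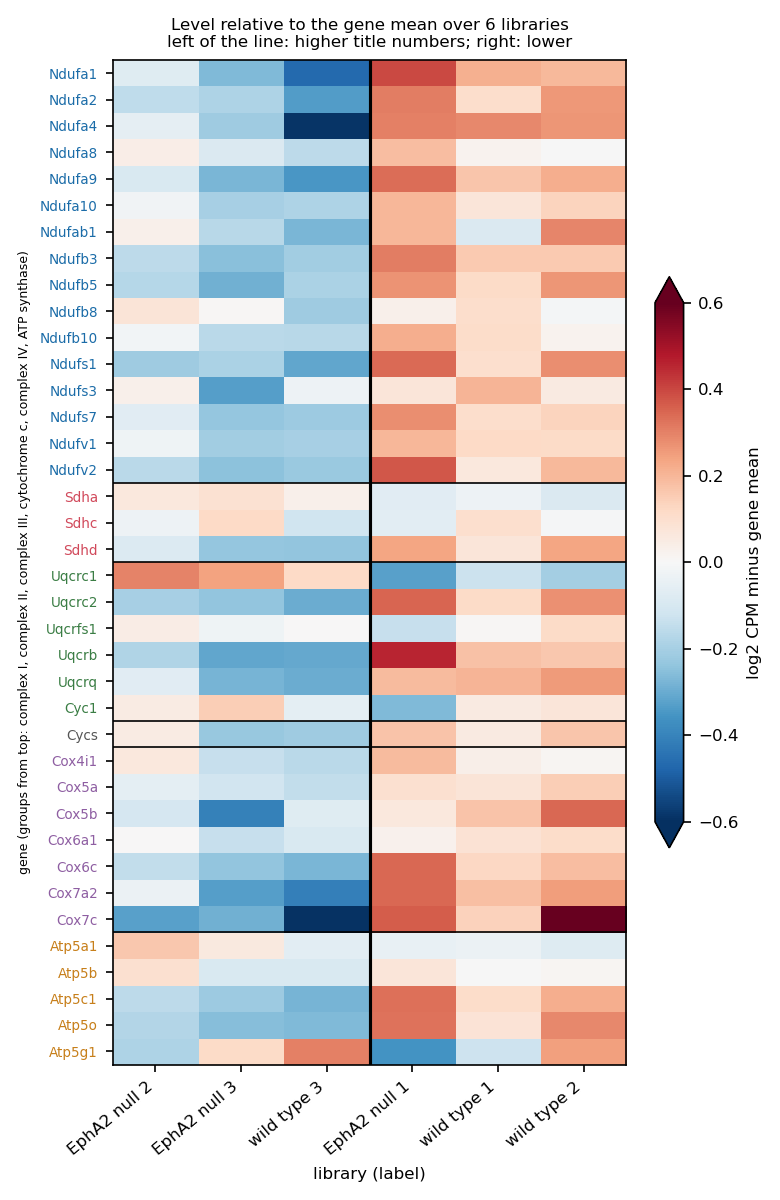
Log2 CPM of each of the 38 genes minus its mean over the 6 libraries, 1 row per gene, with the 3 libraries of higher title numbers left of the line and the 3 of lower numbers right of it. Most complex I and complex IV genes are blue on the left and red on the right, Uqcrc1 shows the opposite, and Sdha, Sdhc, Uqcrfs1, Atp5a1 and Atp5b are pale; colours beyond 0.6 from 0 are not told apart.

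The core subunits of complex I hold the path of electrons from NADH to coenzyme Q. Of the 5 among the members, 4 were called lower in the higher title numbers, against 20.1% of all tested genes. Ndufs1, which carries iron-sulfur clusters, had 94.7, 64.4 and 65.6 CPM in libraries labelled EphA2 null, against 80.1, 90.6 and 60.2 CPM in wild type. Its 3 values in the higher title numbers lay below all 3 in the lower ones, with a log2 difference of -0.52 ± 0.09 (SE; adjusted p = 0.00348). Ndufv1, which binds NADH and the flavin, had 154, 132 and 116 CPM in libraries labelled EphA2 null, against 145, 145 and 117 CPM in wild type, and its difference was -0.31 ± 0.09 (SE; adjusted p = 0.0207). Ndufv2, its iron-sulfur partner, had 84.9, 58.7 and 55.2 CPM in libraries labelled EphA2 null, against 68.5, 75.0 and 56.2 CPM in wild type. The ranges did not overlap, and the difference was -0.47 ± 0.10 (SE; adjusted p = 0.00632). Ndufs7, which holds the last cluster before coenzyme Q and whose window with a YY1 match is printed above, had 50.5, 39.7 and 35.5 CPM in libraries labelled EphA2 null, against 44.8, 45.7 and 35.8 CPM in wild type. It was lower by the same pattern, at -0.38 ± 0.10 (SE; adjusted p = 0.0136). Ndufs3, the fifth core subunit, had 22.2, 21.6 and 16.8 CPM in libraries labelled EphA2 null, against 24.4, 22.0 and 20.7 CPM in wild type. Its 3 values in the higher title numbers also lay below all 3 in the lower ones, but its difference of -0.19 ± 0.13 (SE; adjusted p = 0.269) did not pass.

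Of the accessory subunits of complex I, Ndufa4 included, 8 of 11 were called lower, against 20.1% of all tested genes. Ndufa4 had 328, 257 and 229 CPM in libraries labelled EphA2 null, against 325, 320.2 and 177 CPM in wild type, with wild type 3 the lowest of the 6. The ranges did not overlap, and its difference of -0.65 ± 0.12 (SE; adjusted p = 0.00417) was the largest in complex I. Ndufa1, a small membrane subunit encoded on the X chromosome, had 31.3, 22.6 and 19.8 CPM in libraries labelled EphA2 null, against 27.5, 27.2 and 17.2 CPM in wild type, and its difference was -0.61 ± 0.11 (SE; adjusted p = 0.00390). Ndufa9, which lies near the coenzyme Q site and whose window is printed above, had 89.2, 66.5 and 58.4 CPM in libraries labelled EphA2 null, against 79.5, 82.4 and 55.5 CPM in wild type. The 3 libraries with higher numbers were lowest, at -0.53 ± 0.09 (SE; adjusted p = 0.00359). Ndufa2, a matrix-side subunit, had 49.6, 36.1 and 35.2 CPM in libraries labelled EphA2 null, against 43.1, 48.1 and 31.7 CPM in wild type, at -0.50 ± 0.10 (SE; adjusted p = 0.00506). Ndufb5 and Ndufb3, both of the membrane arm, followed. Ndufb5 had 67.0, 49.4 and 45.6 CPM in libraries labelled EphA2 null, against 60.3, 66.8 and 48.8 CPM in wild type, and Ndufb3 had 36.2, 26.3 and 24.6 CPM in libraries labelled EphA2 null, against 32.6, 32.7 and 25.3 CPM in wild type. Neither overlapped between the ranges, and their log2 differences were -0.44 (adjusted p = 0.00747) and -0.44 (adjusted p = 0.00929).

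Ndufa10 and Ndufb10 had the smallest of the called differences in complex I. Ndufa10, a matrix-side subunit, had 97.2, 83.3 and 73.6 CPM in libraries labelled EphA2 null, against 89.0, 92.9 and 74.3 CPM in wild type, a difference of -0.30 ± 0.09 (SE; adjusted p = 0.0257). Ndufb10, of the membrane arm, had 65.6, 55.7 and 50.3 CPM in libraries labelled EphA2 null, against 60.7, 57.1 and 50.2 CPM in wild type, a difference of -0.27 ± 0.09 (SE; adjusted p = 0.0408). Both were separated between the ranges. The other 3 accessory subunits did not pass and overlapped between the ranges. Ndufb8 had 55.5, 57.2 and 54.6 CPM in libraries labelled EphA2 null, against 58.4, 53.8 and 46.7 CPM in wild type, and its log2 difference of -0.12 was the closest to 0 in complex I (adjusted p = 0.341). Ndufa8 ranged over 57.6 to 69.6 CPM under the EphA2 null label and 54.9 to 62.0 CPM in wild type (log2 difference -0.19, adjusted p = 0.111), and Ndufab1 over 10.5 to 13.5 CPM under the EphA2 null label and 9.72 to 14.4 CPM in wild type (-0.33, adjusted p = 0.111).

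Complex II, which oxidises succinate and is also an enzyme of the citric acid cycle, gave a mixed picture. Sdha, its flavoprotein, had 169.8, 186 and 189.6 CPM in libraries labelled EphA2 null, against 174, 167 and 181 CPM in wild type. All 3 values in the higher title numbers lay above those in the lower ones, but by a log2 difference of 0.12 ± 0.08 (SE; adjusted p = 0.266), which did not pass. Its window, printed above, holds 3 NRF1 matches. Sdhd, a membrane anchor, had 105, 84.2 and 75.9 CPM in libraries labelled EphA2 null, against 93.7, 105 and 75.6 CPM in wild type. It was lower in the higher title numbers, with a log2 difference of -0.39 ± 0.09 (SE; adjusted p = 0.0108). Sdhc, the other anchor, ranged over 26.6 to 30.2 CPM under the EphA2 null label and 25.6 to 29.8 CPM in wild type, with a difference of -0.02 ± 0.12 (SE; adjusted p = 0.880).

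Complex III held the 1 member that was called higher. Uqcrc1, with the values given above, was highest in EphA2 null 2 and 3 and wild type 3, with a log2 difference of 0.44 ± 0.10 (SE; adjusted p = 0.00896). Uqcrc2, the other core subunit, went the opposite way with 201, 137 and 134 CPM in libraries labelled EphA2 null, against 171, 190.4 and 128 CPM in wild type. It did not overlap between the ranges, and its difference was -0.53 ± 0.09 (SE; adjusted p = 0.00305). The small subunit genes followed Uqcrc2. Uqcrb had 40.3, 25.9 and 23.7 CPM in libraries labelled EphA2 null, against 33.2, 32.9 and 23.7 CPM in wild type, a difference of -0.59 ± 0.11 (SE; adjusted p = 0.00384), and its transcript matches 3 pseudogenes. Uqcrq had 46.2, 38.6 and 33.3 CPM in libraries labelled EphA2 null, against 46.6, 48.4 and 32.9 CPM in wild type, a difference of -0.44 ± 0.11 (SE; adjusted p = 0.0112). The subunits that carry the redox centres, by contrast, did not pass. Uqcrfs1, the Rieske iron-sulfur protein, ranged over 54.7 to 62.0 CPM under the EphA2 null label and 60.2 to 65.1 CPM in wild type, with a difference of 0.04 ± 0.09 (SE; adjusted p = 0.725), and its sign is turned when libraries are scaled by total counts alone. Cyc1, the cytochrome c1 gene, had 48.8, 60.7 and 64.8 CPM in libraries labelled EphA2 null, against 60.8, 61.6 and 56.2 CPM in wild type. EphA2 null 1 was lowest, and the difference was 0.12 ± 0.12 (SE; adjusted p = 0.439). Cycs, the mobile carrier between complex III and complex IV, ranged over 1.94 to 2.57 CPM under the EphA2 null label and 1.96 to 2.56 CPM in wild type, at -0.29 ± 0.24 (SE; adjusted p = 0.345).

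In complex IV, 3 of 7 members were called lower (20.1% of all tested genes were), and all 7 were below 0. Cox7a2, the widely expressed form of subunit 7a, had 96.6, 74.3 and 60.6 CPM in libraries labelled EphA2 null, against 86.3, 90.7 and 57.2 CPM in wild type. Its ranges did not overlap, and the difference was -0.57 ± 0.11 (SE; adjusted p = 0.00434). Cox6c had 59.4, 42.3 and 39.6 CPM in libraries labelled EphA2 null, against 51.0, 53.2 and 38.7 CPM in wild type, at -0.49 ± 0.09 (SE; adjusted p = 0.00460). Cox7c had 5.41, 3.35 and 3.44 CPM in libraries labelled EphA2 null, against 4.63, 6.87 and 2.77 CPM in wild type, and its difference of -0.84 ± 0.23 (SE; adjusted p = 0.0187) was the largest of the 38, at a low level and with near-identical copies elsewhere. The other 4 did not pass. Cox4i1 had 239, 219 and 190.5 CPM in libraries labelled EphA2 null, against 215, 211 and 187 CPM in wild type. It overlapped between the ranges, with EphA2 null 2 above wild type 1 and 2, and its difference was -0.20 ± 0.09 (SE; adjusted p = 0.0960). Cox6a1 had 76.1, 74.9 and 67.9 CPM in libraries labelled EphA2 null, against 79.5, 80.6 and 70.2 CPM in wild type, the smallest difference of complex IV at -0.14 ± 0.09 (SE; adjusted p = 0.221). Cox5a, which ranged over 68.0 to 78.6 CPM under the EphA2 null label and 66.4 to 81.7 CPM in wild type, had -0.22 ± 0.08 (SE; adjusted p = 0.0608), and Cox5b, whose values are given above, -0.32 ± 0.12 (SE; adjusted p = 0.0618).

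In the ATP synthase, 2 of 5 members, Atp5c1 and Atp5o, were called lower, against 20.1% of all tested genes. Atp5c1, the gamma subunit that turns within the head, had 210.1, 149.5 and 143 CPM in libraries labelled EphA2 null, against 180.2, 194 and 137 CPM in wild type. It was lower in all 3 libraries of the higher title numbers, at -0.48 ± 0.08 (SE; adjusted p = 0.00368). Atp5o, which joins the head to the outer stalk, had 108, 76.1 and 72.0 CPM in libraries labelled EphA2 null, against 91.1, 105 and 71.4 CPM in wild type, with a difference of -0.50 ± 0.09 (SE; adjusted p = 0.00456). The alpha and beta genes of the head, the most abundant of the 38 by CPM, did not pass. Atp5b had 829, 845 and 742 CPM in libraries labelled EphA2 null, against 789, 797 and 741 CPM in wild type, at -0.08 ± 0.10 (SE; adjusted p = 0.521). Atp5a1 had 476, 549 and 511 CPM in libraries labelled EphA2 null, against 479, 465 and 470.5 CPM in wild type, at 0.07 ± 0.09 (SE; adjusted p = 0.537), a sign that is turned with scaling by total counts alone. Atp5g1 had 3.35, 3.79 and 4.67 CPM in libraries labelled EphA2 null, against 3.96, 5.13 and 5.33 CPM in wild type, and its difference of 0.29 ± 0.21 (SE; adjusted p = 0.281) did not pass.

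The motif matches did not line up with one direction. Of the 7 genes with an NRF1 match, 3 were called lower (Sdhd, Atp5c1 and Atp5o), Uqcrc1 was called higher, and 3 were not called (Sdha, Ndufa8 and Cox6a1). Both genes with a YY1 match, Ndufa9 and Ndufs7, were called lower, as were 15 of all 28 genes with a window. Of the 3 with an ETS match, Sdhd was called lower, and Cox6a1 and Ndufs3 were not called.

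The title number difference varied with transcript length. The summed leukocyte and corneal epithelial markers also differed between the ranges, while the sums of most other cell markers overlapped. The part of each in the result was not tested. Over all tested genes the median log2 difference was -0.35 for transcripts under 1 kb, -0.19 for 1 to 2 kb, 0.01 for 2 to 4 kb and 0.20 over 4 kb. The respiratory genes are mostly short, with 17 under 1 kb and 13 from 1 to 2 kb. Under 1 kb, 11 of the 17 were called lower, against 39.6% of the 755 tested genes of that length, and their median was -0.44. From 1 to 2 kb, 8 of 13 were called lower, against 27.2% of 2705 genes, with a median of -0.39, and from 2 to 4 kb 2 of 7, against 18.5% of 5324. The 1 member over 4 kb, Atp5g1, was not called. The 21 members called lower had a median length of 983 bases and the 16 not called one of 1442 bases.

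All 10 leukocyte markers were detected, 7 of the 8 that were tested were called lower (20.1% of all tested genes were), and the summed level was 25.4 to 31.7 CPM in the higher title numbers, against 47.3 to 61.3 CPM in the lower ones. The 8 corneal epithelial markers summed to 76356 to 84076 CPM in the higher title numbers, against 58209.9 to 66254 CPM in the lower ones. Of these 8, 4 were called higher (24.6% of all tested genes were), and 0 lower. Taken singly, 7 were above 0 and 1 was below, at -0.29. All 5 conjunctival markers were below 0, at a median log2 difference of -0.61, and the mucin gene Muc5ac (-4.95, adjusted p = 0.00232) and the keratin gene Krt7 (-0.63, adjusted p = 0.0342) were called lower. Their sum overlapped, at 3287 to 5996 CPM in the higher against 4887 to 6289 CPM in the lower title numbers. Of 8 keratocyte and fibroblast markers, Kera and Lum were at 0 in all libraries. Vim, the 1 of the 8 that was tested, was called lower (-1.94). The sum of the 8 was 0.822 to 2.30 CPM in the higher against 2.20 to 2.46 CPM in the lower title numbers. The 4 corneal endothelial markers summed to 20.0 to 41.3 CPM in the higher against 14.2 to 24.9 CPM in the lower title numbers, and 1 of the 2 tested, the transporter gene Slc4a11, was called higher (1.04, adjusted p = 0.00675). Sums of nerve and Schwann, melanocyte and skeletal muscle markers overlapped between the ranges. The vessel sum was 0.485 to 1.03 CPM in the higher against 0.229 to 0.291 CPM in the lower title numbers. The erythrocyte sum was 5.90 to 6.74 CPM in the higher against 6.99 to 11.1 CPM in the lower ones. In bulk libraries such as these, fewer cells of a type and less RNA per cell cannot be told apart.

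**Figure D4:**
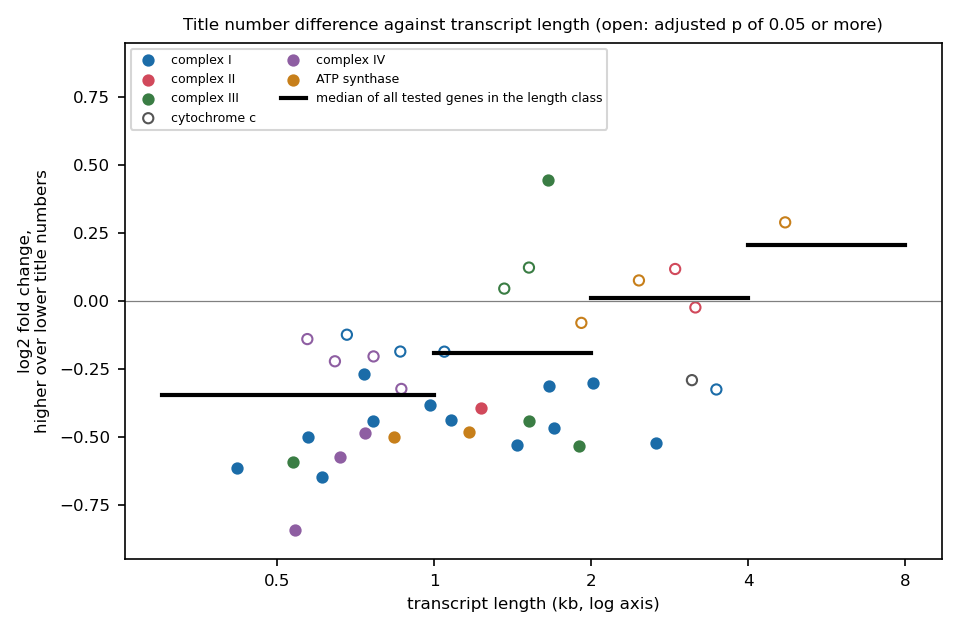
Log2 fold change of the 38 genes, higher over lower title numbers, against the length of the representative transcript in kb (log axis), coloured by complex and filled where the adjusted p was under 0.05. The black lines are the medians of all tested genes in 4 length classes, which run from -0.35 under 1 kb to 0.20 over 4 kb.

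The other nuclear subunits of the same complexes are 43 genes, of which 42 were in the table and tested. For genotype 0 of 42 were called, at a median of -0.04, and 1, Atp5l, a membrane subunit of the ATP synthase, had an unadjusted p under 0.05 (1.18% of all tested genes did), with 1.16 to 1.74 CPM under the EphA2 null label and 2.09 to 2.45 CPM in wild type and a genotype difference of -0.66 ± 0.27 on the log2 scale (SE; edgeR adjusted p = 0.9996). With the range in the model, Atp5l no longer had an unadjusted p under 0.05, and 1 other of the 42, Sdhb, did (3.87% of all tested genes did). In the higher against the lower title numbers 33 of 42 were called lower and 1 higher, against 20.1% lower and 24.6% higher over all tested genes, at a median of -0.44. By complex, 17 of 21 were called lower in complex I, 1 of 1 in complex II, 3 of 3 in complex III, 4 of 4 in complex IV and 8 of 13 in the ATP synthase. The largest falls among them were in Ndufa6, an accessory complex I subunit, at -0.68 (adjusted p = 0.00239), and in Atp5k, a membrane subunit of the ATP synthase, at -0.67 (adjusted p = 0.00203). Atpif1, the inhibitor of the ATP synthase, was lower as well, at -0.57 (adjusted p = 0.00254). Others called lower included Ndufa5, Ndufs8, Ndufb11, Ndufa3, Ndufc2, Ndufa13, Ndufb7, Ndufs4, Ndufc1, Ndufb9, Ndufb6, Ndufa11, Ndufb2, Ndufs6 and Ndufv3 of complex I, Sdhb of complex II, Uqcr10, Uqcrh and Uqcr11 of complex III, Cox6b1, Cox7b, Cox8a and Cox7a2l of complex IV, and Atp5h, Atp5j2, Atp5j, Atp5mpl, Atp5f1 and Atp5e of the ATP synthase, between -0.61 (Ndufa5) and -0.25 (Atp5e). The 1 higher was Atp5d, the delta subunit of the rotor, at 0.38 (adjusted p = 0.00979).

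Assembly factors build the complexes without being part of them. Of 46, 43 were tested, 0 were called for genotype at a median of -0.05, and 18 were called lower and 1 higher in the higher title numbers, at a median of -0.30. Pet100, a complex IV assembly factor, had the largest fall at -0.73 (adjusted p = 0.00617), followed by Tmem126b of complex I at -0.70 (adjusted p = 0.00293). Also called lower were Ndufaf5, Ndufaf2, Tmem186, Ndufaf8, Nubpl and Ndufaf3 of complex I, Sdhaf3, Sdhaf4 and Sdhaf2 of complex II, Uqcc2 and Uqcc3 of complex III, and Coa6, Cox17, Cox19, Surf1 and Cox14 of complex IV, between -0.67 (Ndufaf5) and -0.27 (Sdhaf2). Cox10, needed to make the haem of complex IV, was the 1 that was called higher, at 0.48 (adjusted p = 0.0396). None of the 3 ATP synthase factors passed. Over all tested genes 20.1% were called lower.

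**Figure D5:**
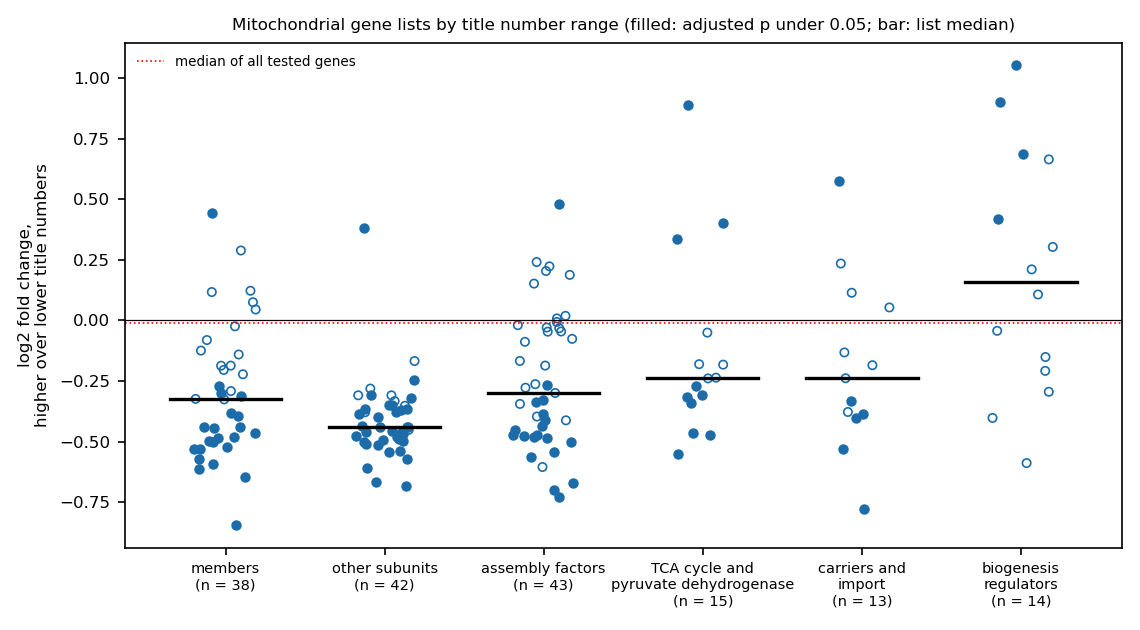
Log2 fold change, higher over lower title numbers, for each tested gene of 6 mitochondrial lists (points spread sideways with no meaning), filled where the adjusted p was under 0.05, with a black bar at each list's median and a dotted line at the median of all tested genes, -0.01. The medians are -0.33 for the 38 members and -0.44 for the 42 other subunits, and the regulators are the 1 list with a median above 0.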

How the data were processed

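The deposited table holds raw counts, whole numbers per Ensembl gene for 6 samples, with no normalization by the authors; columns were matched to samples by title, and 0 further columns of samples were present. Per the labels, the RNA was total RNA of corneal epithelium, and the series' design text names an Illumina HiSeq. The sources used here do not give aligner, counting program, strand setting, build or annotation, so reads of antisense or overlapping genes cannot be told apart. Exons of 13 members overlap those of another gene by at least 50 bases (Ndufa2, Ndufa9, Ndufab1, Ndufb5, Ndufb8, Ndufs1, Ndufs3, Uqcrc2, Uqcrb, Cox4i1, Cox5a, Cox6c and Atp5a1), and Atp5o also shares exons with other annotated genes. Names, positions and lengths came from GENCODE M21 (GRCm38), which had 24991 of the 25006 identifiers. No pair of libraries agreed within sampling noise (lowest chi-square per degree of freedom 10.6).

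edgeR 4.0.16 in R 4.3.3 was used with TMM factors, filterByExpr (12847 genes kept), glmQLFit and glmQLFTest, first with genotype as the 1 term, then with genotype and title number range, then with their interaction. A gene was called where its p, adjusted by Benjamini-Hochberg over all tested genes, was under 0.05. The SE is the log2 fold change divided by the square root of F. Relative log2 levels used a prior count of 1. DESeq2 1.42.0, limma 3.58.1 (voom), other scalings, filters and thresholds, each library left out and summed samples were alternatives. Samples sharing a title number were summed for the genotype comparison only. The representative transcript is the longest with an APPRIS principal tag. Copies were sought with blastn 2.17.0 among annotated transcripts. The edgeR steps were also run on simulated counts. The simulation for genotype held no title number difference, so it does not show the power or error of the genotype test here. The members, lists and title number comparison were chosen with earlier results of these data known. Named are all members, and from other lists the genes called, otherwise up to 2 with the smallest p; which of them are given with values was chosen after they were seen, and 1 gene counted among the other subunits is not reported here by name.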

Additional observations from a re-analysis of the deposited data

How the results depend on the processing

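For genotype, 0 members were called in either direction under all 15 alternatives, and the median of the 38 stayed between -0.18 (without EphA2 null 1) and 0.09. Over all genes DESeq2 called 4 higher and 1 lower, against 1 and 0 in edgeR. When libraries with the same title number were added up, 0 genes were called higher. For the title numbers, the median of the 38 was -0.44 with total counts only, a scaling that moved the median of all tested genes to -0.13. Leaving out each library in turn gave 2 to 22 members called lower and 0 to 1 higher, and 253 to 2582 genes lower and 850 to 3221 higher over all tested genes, with the low ends without EphA2 null 1, and a median of the 38 between -0.38 and -0.29. Without wild type 2 there were 1484 lower and 2065 higher, and without wild type 3 1477 lower. Ndufa4 and Cox7a2 were called lower under all 14 alternatives, and no called value changed sign. Under scaling by RLE, TMM or total counts, the genotype sign of Ndufa1, Ndufab1, Ndufb10, Sdhc and Uqcrb and the title number sign of Atp5a1 and Uqcrfs1 differed, and no value that changed sign was called. Without EphA2 null 1 the title number difference rests on wild type alone; the cause of the lower counts was not tested. No paired analysis was possible because the titles number no replicates, and neither the title number, which no library of 1 genotype shares with the other, nor the letter after it (N, R or B) is said to pair libraries; the range served as a term instead, with its values given in the results. Cox7c, at a mean of 4.41 CPM, had the widest genotype interval of the 38 (-1.09 to 0.63), with an SE of 0.368, against 0.231 once the range was in the model.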

Other observations

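Of the other mitochondrial genes listed, none was called for genotype by edgeR (0.00778% of all tested genes were; at an unadjusted p under 0.05 there were Pdhb and Timm23). Of 15 genes of the citric acid cycle and pyruvate dehydrogenase, 7 were called lower and 3 higher in the higher title numbers, at a median of -0.24, against 20.1% lower and 24.6% higher over all tested genes, so the count called higher is no more than the background. Fh1, the fumarase, was lowest at -0.55 (adjusted p = 0.00330, edgeR), while Ogdh, a subunit of the oxoglutarate dehydrogenase, was higher at 0.89 (adjusted p = 0.00313). Cs, the citrate synthase, was higher as well, at 0.40 (adjusted p = 0.0116). Ogdh had 127, 265 and 295 CPM in libraries labelled EphA2 null, against 175, 136 and 243 CPM in wild type, so EphA2 null 2 and 3 and wild type 3 were highest. Dlat, of pyruvate dehydrogenase, was the third (0.34), and Sucla2, Idh3g, Suclg1, Idh3a, Idh3b and Pdha1 were the other genes called lower. Of 13 carriers and import genes 5 were called lower and 1 higher, the last again under the background of 24.6%, with the chaperonin gene Hspe1 at -0.78 (adjusted p = 0.00470) and the import pore gene Tomm40 at 0.58 (adjusted p = 0.0222). The carrier genes Slc25a4 and Slc25a5, which exchange ADP and ATP, were lower at -0.39 and -0.40, as were the outer membrane channels Vdac3 and Vdac2.

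The 14 regulators of mitochondrial biogenesis had 4 genes called higher and 0 lower, at a median of 0.16. The 4 called higher lie near the 24.6% of all tested genes called higher and are no result about the list. Pprc1, a coactivator related to PGC-1alpha, had 19.4, 46.5 and 49.7 CPM in libraries labelled EphA2 null, against 29.9, 25.6 and 48.2 CPM in wild type. Its 3 values in the higher title numbers lay above all others, with a log2 difference of 1.05 ± 0.14 (SE; adjusted p = 0.00203). Polrmt, the mitochondrial RNA polymerase, was higher by 0.90 (adjusted p = 0.00411), Yy1 by 0.69 (adjusted p = 0.00228) and Esrra, an orphan nuclear receptor, by 0.42 (adjusted p = 0.0243). Nrf1 (0.21, adjusted p = 0.179) and Gabpa (-0.15, adjusted p = 0.178) did not pass, nor did Ppargc1a, which encodes PGC-1alpha (-0.29, adjusted p = 0.422). Of 9 genes for tissue forms of the complexes, 3 had 0 counts in all libraries. Only 2, Cox7a1 and Cox6b2, passed the filter, at means of 2.20 and 0.692 CPM, not divided by length.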
